A study of Homo sapiens with 48 samples.

Results

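The 10 genes described here encode death receptors and the proteins that carry their signal: the TRAIL receptors TNFRSF10A, TNFRSF10B, TNFRSF10C and TNFRSF10D, the receptors FAS and TNFRSF1A, the ligand TNFSF10, the adaptor FADD, the caspase CASP8 and its relative CFLAR. They were taken by symbol from a matrix of read counts per gene, where each is 1 row, so 10 of 33892 rows were members. Death receptors are members of the TNF receptor superfamily that carry a death domain in the cell. When TNFSF10, also called TRAIL, binds TNFRSF10A (DR4) or TNFRSF10B (DR5), the adaptor FADD recruits procaspase-8, which activates itself there and then cleaves executioner caspases. CFLAR, also called c-FLIP, resembles caspase-8 without being an active protease and competes for places in that complex, and proteasome inhibitors are widely used together with TRAIL in laboratory work because many cancer cells become more sensitive to it.

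The study treated 8 human cancer cell lines with carfilzomib, an irreversible proteasome inhibitor used against multiple myeloma, or with its solvent DMSO. RKO and DLD-1 came from colon cancer, H-23 and H-1299 from lung cancer, PANC-1 and CAPAN-2 from pancreatic cancer, and H-929 and RPMI from myeloma. Each of the 16 groups had 3 biological replicates, 48 libraries in all, and every dish was harvested after 24 h. The drug was given at a concentration set for each line, its IC50 for proteasome activity, and these concentrations were not used here. The cells carried no engineered allele according to the labels, each line is 1 established culture, and RNA was measured in bulk. In bulk RNA, a change in the number of cells that express a gene and a change in RNA per cell cannot be told apart.

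Libraries held 9.12 M to 64.4 M counts, and no pair of replicates agreed within sampling noise (a chi-square of at least 3.47 for each degree of freedom). In DMSO, the summed level of 8 plasma cell markers was 7667 to 8152 CPM (counts scaled to the size of the library) in H-929 and 3078 to 3362 CPM in RPMI, against at most 580 CPM in any carcinoma line, and all 8 were above the floor of 3 counts in both myeloma lines. The sum of 7 epithelial markers was at least 974 CPM in every carcinoma line except RKO, where it was 128 to 153 CPM and KRT19 and KRT7 were at 0. Colon markers were low in RKO (21.1 to 22.7 CPM against 248 to 268 CPM in DLD-1), pancreas markers were low in PANC-1 (5.65 to 7.08 CPM against 1412 to 1517 CPM in CAPAN-2), and the lung markers were at most 4.28 CPM in H-23 and 1.83 CPM in H-1299 but 40.3 to 44 CPM in H-929. The sum of 4 leukocyte markers was 747 to 751 CPM in RKO, from 1 marker above the floor with PTPRC and CD3E at 0, and at most 69.5 CPM elsewhere. After carfilzomib the plasma cell sum was 4285 to 4416 CPM in H-929 and 1422 to 1641 CPM in RPMI, and its part in the results on these lines was not tested. Of the other sums, the leukocyte markers went from 41.7 to 47.2 CPM with DMSO to 100.3 to 108 CPM in PANC-1 and from 25.1 to 25.3 to 47.8 to 56.2 CPM in CAPAN-2. RPMI was the only line where the leukocyte sum fell, from 61.8 to 69.5 CPM to 36.5 to 41.6 CPM. The pancreas markers went from 14.7 to 15.8 CPM to 3.81 to 4.19 CPM in RPMI. The lung markers went from 40.3 to 44 CPM to 17.1 to 18.5 CPM in H-929. The 4 stromal markers went from 161 to 171 CPM to 85 to 100.3 CPM in PANC-1, and the epithelial markers from 46 to 61.3 CPM to 91.4 to 97.7 CPM in H-929. Their part in the results was not tested either.

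RefSeq promoter windows (GRCh38.p14, 250 bases before to 50 after a start) were used for 6 of the 10 genes, 13 windows in all. These genes were FAS, TNFRSF1A, TNFSF10, CFLAR, CASP8 and FADD. No window was available for TNFRSF10A, TNFRSF10B, TNFRSF10C or TNFRSF10D. Parts of 3 are shown, each ending at the base before the annotated gene, because these genes stand for 3 patterns in the data: CASP8 rose in 5 lines and fell in none, TNFRSF1A changed in opposite directions in different lines, and TNFSF10 was close to 0 in 3 lines. Capitals mark a GC box (GGGCGG) and a loose NF-kB pattern (GGG, any 5 bases, CC), and each sequence is written 5′ to 3′ on the gene's strand.
CASP8, chr2:201233213-201233442, plus strand: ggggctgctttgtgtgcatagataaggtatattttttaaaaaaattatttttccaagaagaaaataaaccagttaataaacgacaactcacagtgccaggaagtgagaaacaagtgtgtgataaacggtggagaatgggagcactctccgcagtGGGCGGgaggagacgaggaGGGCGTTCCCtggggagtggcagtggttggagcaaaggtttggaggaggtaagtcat
TNFRSF1A, chr12:6342115-6342326, minus strand: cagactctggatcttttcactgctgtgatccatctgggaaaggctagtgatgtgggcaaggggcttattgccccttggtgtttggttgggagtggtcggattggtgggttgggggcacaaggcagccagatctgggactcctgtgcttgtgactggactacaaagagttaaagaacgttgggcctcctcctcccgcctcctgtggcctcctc
TNFSF10, chr3:172523508-172523680, minus strand: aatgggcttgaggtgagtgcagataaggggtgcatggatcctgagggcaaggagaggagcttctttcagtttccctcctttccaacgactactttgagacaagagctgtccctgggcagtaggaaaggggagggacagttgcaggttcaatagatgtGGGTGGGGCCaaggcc
The CASP8 stretch holds both patterns, the TNFSF10 stretch holds the NF-kB pattern and the TNFRSF1A stretch holds neither. On both strands, GGGCGG was present in 45% and the NF-kB pattern in 58.7% of 35116 windows of the same length, so both are common, and the 2 patterns can overlap. The AP-1 pattern TGANTCA (7.71% of windows) occurred in 1 window of FAS, 1 of CFLAR, 2 of CASP8 and 1 of FADD. None of the 13 windows held the C/EBP-ATF pattern TGATGNAA, the CRE TGACGTCA or a heat shock element (GAA, 2 bases, TTC, 2 bases, GAA), which were present in 3.62%, 1.85% and 0.490% of all windows. These matches describe letters only, and they do not cover the TRAIL receptor genes, TNFRSF10B among them.

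The 4 TRAIL receptor genes lie side by side on chromosome 8 of the human genome (hg38; gene coordinates from GENCODE release 29, matched by identifier): TNFRSF10B at chr8:23020133-23069179 (minus strand), TNFRSF10C at chr8:23102590-23117437 (plus), TNFRSF10D at chr8:23135588-23164030 (minus) and TNFRSF10A at chr8:23190452-23225126 (minus). CFLAR (chr2:201116104-201176687) and CASP8 (chr2:201233443-201287711) are neighbours on the plus strand of chromosome 2. FAS is at chr10:88990582-89015785 (plus), TNFRSF1A at chr12:6328757-6342114 (minus), TNFSF10 at chr3:172505508-172523507 (minus) and FADD at chr11:70203163-70207390 (plus). The strand setting of the counting is not given in the sources used here, so reads of TNFRSF10B and of RHOBTB2, which overlaps it on the opposite strand, cannot be told apart with certainty, and the same holds for FAS and ACTA2.

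At least 1 of these genes changed with carfilzomib in every line, but the set of genes and the direction differed from line to line. Of 80 pairs of gene and line, 72 passed the filter on low counts, and of these 32 were higher and 11 lower with the drug at an adjusted p under 0.05 (edgeR quasi-likelihood F test on the line's 6 libraries, Benjamini-Hochberg adjustment over all genes tested). CASP8 and FADD were called only in the upward direction, in 5 and 4 lines. TNFRSF10A was higher in 6 lines and lower in 1, while CFLAR was higher in 3 and lower in 4. Each of the other receptors changed in both directions across the lines, except TNFRSF10C, which was tested in 3 lines and lower in 1. Calls in both directions were common, at 47.8% of the 11622 genes tested in all 8 lines. The shares of all genes called in each line are given below. Of the 43 calls, 38 were made in the same direction in each of the 6 fits that left out 1 library.

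**Figure D1:**
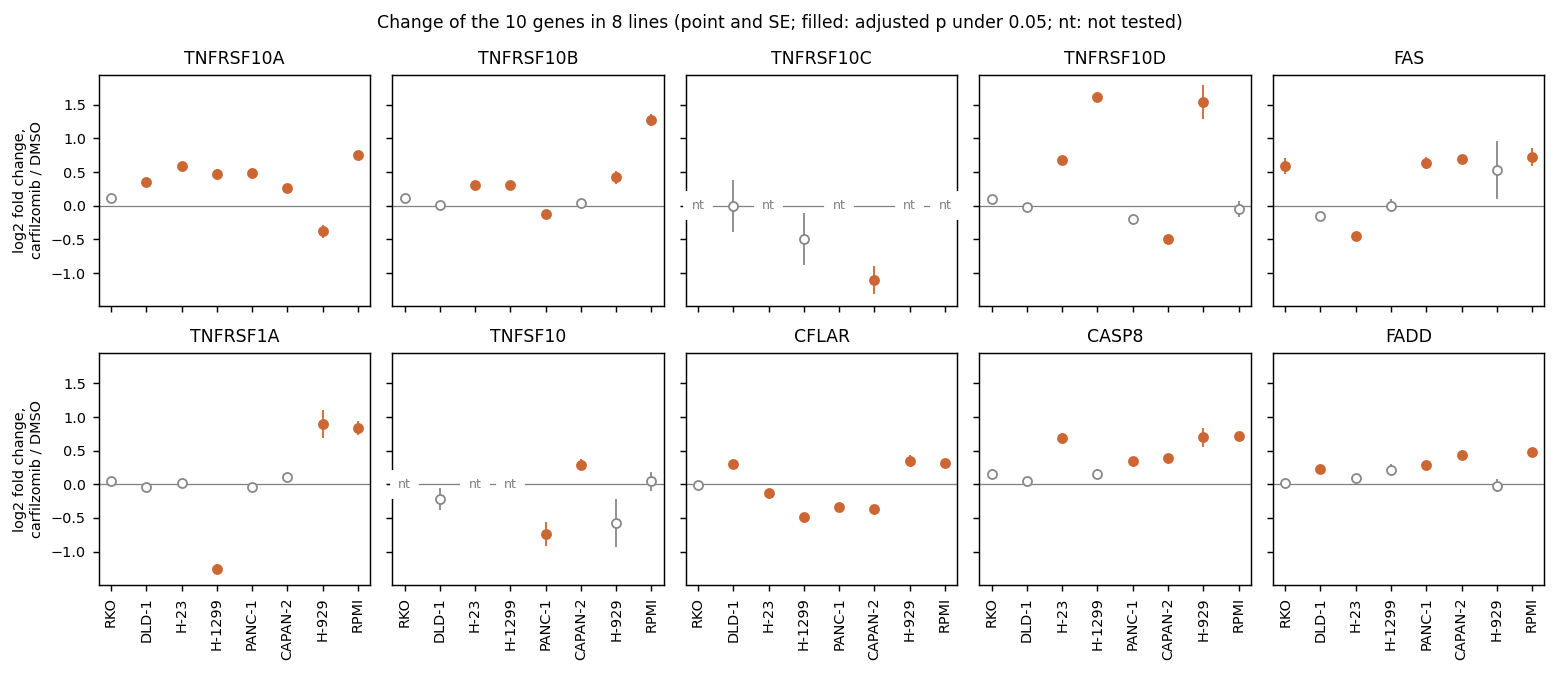
Change of each of the 10 genes with carfilzomib in each line, as the log2 fold change against DMSO with its standard error (3 libraries per group; filled points have an adjusted p under 0.05, "nt" is not tested). The values run from -1.26 for TNFRSF1A in H-1299 to 1.61 for TNFRSF10D in H-1299, and the CASP8 points all lie above 0.

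The count of members called in a line was read against the share of all genes called there. In RKO, 1 of 8 members tested was called (FAS, higher), where 8.9% of all genes tested were called, 3.62% higher and 5.28% lower. DLD-1 had 3 of 10, all higher, where 10.9% of all genes were higher and 12.1% lower (23% in all). H-23 had 4 members higher and 2 lower of 8, where 17.7% of all genes were higher and 16.2% lower (33.9% in all). In H-1299 the count was 3 higher and 2 lower of 9, beside 29.8% and 31.3% of all genes (61.2% in all). In PANC-1 it was 4 higher and 3 lower of 9, beside 20.5% and 18.2% (38.7% in all), and in CAPAN-2 5 higher and 3 lower of 10, beside 25.7% and 26.7% (52.5% in all). For the myeloma line H-929 the count was 5 higher and 1 lower of 9, beside 26.4% and 26.2% of all genes (52.6% in all). For RPMI it was 7 of 9 higher and none lower, beside 31.3% and 32.2% (63.4% in all). The median log2 fold change in RPMI was 0.72 over the members tested and 0.01 over all genes. The members' median was 0.42 in H-929 and between -0.04 and 0.20 in the 6 carcinoma lines. Members that passed the filter are fewer than all members, and a gene that is low in DMSO passes more easily where the drug raises it, so these counts are a description.

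TNFRSF10A, one of the 2 TRAIL receptors with a complete death domain, was the member raised in most lines. Its largest rise was in RPMI, from 72.3, 69 and 75.3 CPM in the 3 DMSO libraries to 124, 123 and 121 CPM with carfilzomib (log2 fold change 0.76 ± 0.053 (SE, n = 3 against 3), edgeR adjusted p = 2.9e-08). In H-23 it went from 55.2, 55.5 and 56.4 to 82.7, 85.4 and 84.5 CPM. The treated libraries lay above all DMSO libraries in both lines, with little spread within a group. Of all genes tested, such separate groups were seen for 28.2% in RKO, 39.9% in DLD-1, 45.7% in H-23, 66.2% in H-1299, 49.6% in PANC-1, 59.3% in CAPAN-2, 59.4% in H-929 and 68.2% in RPMI. PANC-1 moved from 21.1, 17.9 and 19.1 to 25.5, 26.3 and 29.6 CPM and H-1299 from 34, 40.2 and 36.6 to 53.7, 49.7 and 50.1 CPM. Their log2 fold changes were 0.49 and 0.47, and those of DLD-1 and CAPAN-2 were 0.35 and 0.26, all called. H-929 went the other way, from 51.9, 54.7 and 54.2 to 42.8, 39.2 and 41.4 CPM, a log2 fold change of -0.38 ± 0.099 with an edgeR adjusted p of 0.005. RKO was at 63.4, 61.7 and 63.5 CPM with DMSO and 67.3, 68.5 and 69.1 CPM with the drug, a difference that was not called (adjusted p = 0.21). At least 5 lines called higher was the result for 9.25% of the 11622 genes with a test in each of the 8 lines.

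TNFRSF10B, the TRAIL receptor often reported as a target of the stress factor DDIT3, more than doubled in RPMI and changed by much less elsewhere. In RPMI it rose from 33.5, 28.7 and 27.5 to 77.7, 75.5 and 62.4 CPM (1.28 ± 0.093, adjusted p = 4.5e-08 by edgeR). The lowest treated RPMI library was at 62.4 CPM and the highest DMSO library at 33.5 CPM. In H-929 the gene rose from 75.9, 80.4 and 74.6 to 115, 92.4 and 101 CPM (0.42 ± 0.096), in H-23 from 133, 129 and 134 to 164, 165 and 159 CPM (0.30), and in H-1299 from 69.1, 68.8 and 70.5 to 89.6, 85.3 and 82.4 CPM (0.30). In all of these the groups were separate. PANC-1 was lower by a small amount, 99.7, 94 and 95.7 against 86.2, 90.3 and 89.6 CPM (-0.12, adjusted p = 0.022). That call was lost without DMSO replicate 1 (adjusted p = 0.061), without DMSO replicate 3 (0.053), without carfilzomib replicate 1 (0.063) and in one fit of all libraries (-0.13, adjusted p = 0.17 by edgeR). The 3 remaining lines were not called, with log2 fold changes of 0.12 in RKO, 0.01 in DLD-1 and 0.04 in CAPAN-2. RHOBTB2, on the opposite strand, held 31% as many counts as TNFRSF10B in RPMI and 74.3% in H-929, and it fell in both (log2 fold changes -1.17 and -0.51), so its own change and that of TNFRSF10B had opposite signs there.

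**Figure D2:**
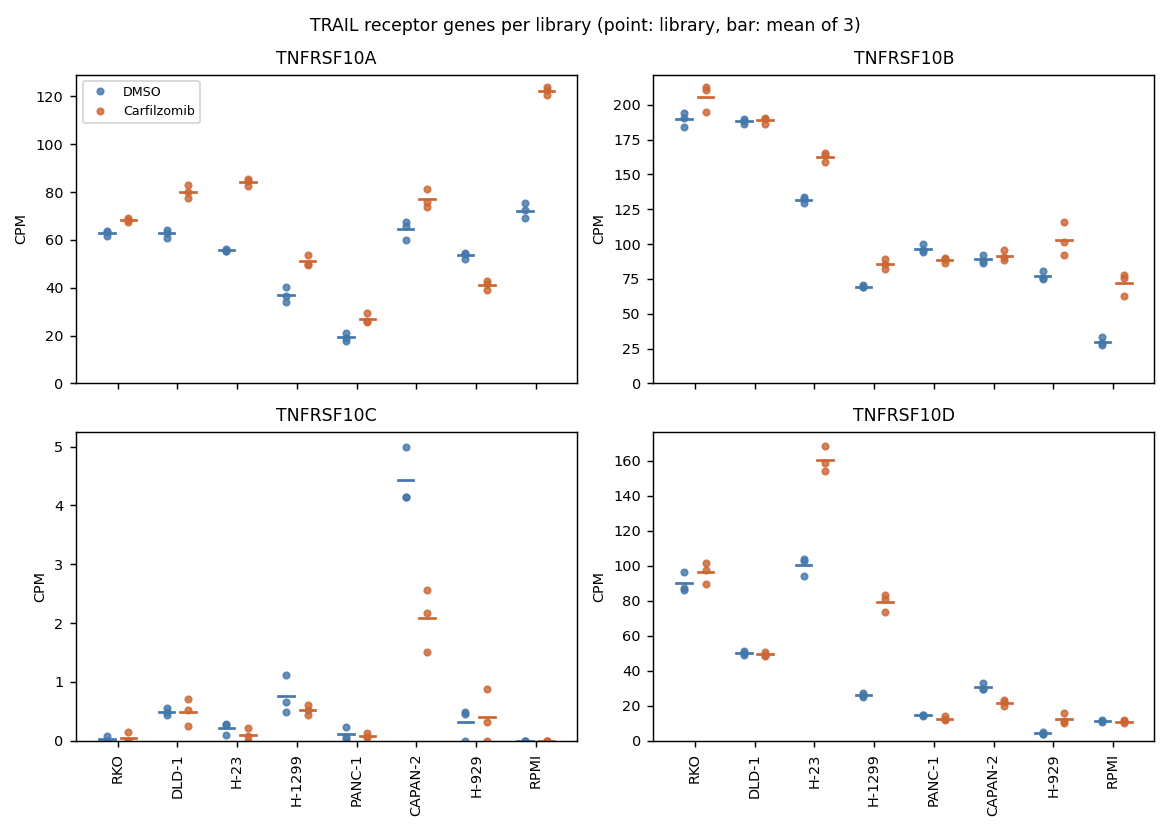
CPM of the 4 TRAIL receptor genes in each library of the 8 lines, DMSO in blue and carfilzomib in orange, with bars at the means of 3. In RPMI the treated libraries of TNFRSF10A and TNFRSF10B stand above all DMSO libraries, and TNFRSF10D does so in H-23, H-1299 and H-929.

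The decoy receptors bind TRAIL without passing on a death signal: TNFRSF10D has a truncated death domain and TNFRSF10C is held in the membrane by a lipid anchor. TNFRSF10D showed the largest rise of any member in any line. In H-1299 it went from 24.9, 27.1 and 25.9 to 83.4, 81.2 and 73.5 CPM (1.61 ± 0.062, edgeR adjusted p = 5.1e-10). In H-929 it went from 4.05, 3.74 and 5.04 to 15.7, 10.4 and 11.3 CPM (1.54 ± 0.25, adjusted p = 1.4e-04), where both levels were low and the treated libraries spread more widely. H-23 rose from 104, 94.4 and 103 to 154, 168 and 159 CPM (0.68). In these 3 lines the lowest treated library was above the highest DMSO library. CAPAN-2 fell from 29.4, 29.7 and 32.7 to 23, 20 and 22.2 CPM (-0.50, adjusted p = 5.9e-05). RPMI, where both death-inducing TRAIL receptors rose, gave 12, 10.8 and 11.2 CPM with DMSO and 9.98, 11.8 and 11 CPM with the drug, overlapping groups that were not called. The remaining log2 fold changes, none called, were -0.20 in PANC-1, -0.02 in DLD-1 and 0.10 in RKO, and that of PANC-1 passed the threshold without carfilzomib replicate 1 (-0.28).

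TNFRSF10C was highest in CAPAN-2, where every library was at 1.5 CPM or more, and the highest library of the other lines was a DMSO library of H-1299 at 1.12 CPM. In CAPAN-2 it fell from 4.15, 4.15 and 5 to 1.5, 2.18 and 2.56 CPM (-1.11 ± 0.21, adjusted p = 4.2e-04 by edgeR), with no overlap. In one fit of all 48 libraries, which shares 1 estimate of the spread, the same change was -1.08 with an adjusted p of 0.094. DLD-1 and H-1299 passed the filter and were not called. RKO, H-23, PANC-1 and H-929 did not pass the filter, and RPMI had 0 counts in all 6 libraries.

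Set against each other within a library, TNFRSF10B and the sum of the decoys shifted in opposite directions in different lines. The log2 ratio of TNFRSF10B counts to TNFRSF10C plus TNFRSF10D counts fell from a mean of 1.38 to 0.10 in H-1299 and from 4.06 to 3.01 in H-929, while it rose from 1.39 to 2.71 in RPMI and from 1.35 to 1.95 in CAPAN-2. H-23 moved from 0.39 to 0.02, and RKO, DLD-1 and PANC-1 changed by at most 0.09. Over the 8 lines the mean change was -0.08 (SD 0.838), which an exact two-sided sign-flip permutation test did not separate from 0 (p = 0.836, adjusted p = 0.836 over the 2 ratios tested).

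FAS, the receptor of FAS ligand, rose in 4 lines and fell in 1. CAPAN-2 went from 31.9, 30.1 and 32.7 to 51.7, 52.5 and 49.1 CPM (0.69 ± 0.06, edgeR adjusted p = 2.4e-07). RPMI went from 9.71, 10 and 8.58 to 14.2, 18.7 and 13.7 CPM (0.72), and PANC-1 from 10.5, 8.61 and 9.36 to 15.5, 14.2 and 14.4 CPM (0.63). The groups were separate in all 3 lines. In RKO, the line with the smallest overall response, FAS rose from 13.3, 14.9 and 14.4 to 19.8, 20.5 and 23.7 CPM (0.59 ± 0.12, adjusted p = 0.0087), and without carfilzomib replicate 3 the value was 0.50 with an adjusted p of 0.066. H-23 fell from 25.6, 25.9 and 24.6 to 19.4, 17.4 and 18.7 CPM (-0.46, adjusted p = 8.9e-05). DLD-1 (-0.16), H-1299 (0.00) and H-929 (0.53) were not called, and in H-929 the libraries held 3.03, 1.74 and 2.52 CPM against 2.93, 5.84 and 1.75 CPM. ACTA2 held from 3.64% (RPMI) to 55.7% (H-929) as many counts as FAS. In RKO it held 31.9% as many and its log2 fold change was 0.75 (adjusted p = 0.056 by edgeR), the same sign as FAS, and in PANC-1 it held 9.61% as many, at 0.40 (adjusted p = 0.19). It passed the threshold in H-929 (1.61, edgeR adjusted p = 0.0094), where FAS did not.

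TNFRSF1A, the main TNF receptor with a death domain, gave the largest fall of any member and also rose in both myeloma lines. In H-1299 it fell from 172, 145 and 186 to 69.1, 71.4 and 69.4 CPM (-1.26 ± 0.074, adjusted p = 1.6e-08 by edgeR). The highest treated library was below the lowest DMSO library by more than a factor of 2, and the DMSO libraries were the more variable group. In the same line the summed epithelial markers were 974 to 1069 CPM with DMSO and 363 to 402 CPM with the drug (6 and 5 of the 7 above the floor, CDH1 at 0 with DMSO), whose part in the result was not tested. H-929 rose from 7.93, 6.34 and 6.2 to 11.7, 12.2 and 14.2 CPM (0.90 ± 0.21, adjusted p = 0.0024) and RPMI from 18.7, 18 and 18.3 to 38.9, 31.6 and 27.9 CPM (0.84 ± 0.11, adjusted p = 1.3e-05). No group overlapped its control in either myeloma line. The other 5 lines gave log2 fold changes from -0.04 in PANC-1 to 0.11 in CAPAN-2 and none was called, although CAPAN-2 passed the threshold without DMSO replicate 3 (0.14).

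TNFSF10, the ligand of the TRAIL receptors, was abundant in CAPAN-2 only, where it rose from 77.2, 64.5 and 81.4 to 95.4, 94.4 and 83.8 CPM (0.29 ± 0.081, edgeR adjusted p = 0.0071). In the fit of all libraries the same difference was 0.31 with an adjusted p of 0.14. PANC-1 fell from 3.2, 2.88 and 2.33 to 1.59, 1.6 and 1.83 CPM (-0.74, adjusted p = 0.0052). DLD-1 (-0.22), H-929 (-0.57) and RPMI (0.05) were not called with overlapping groups, and H-929 passed the threshold in the fit of all libraries (-0.75, adjusted p = 0.018). RKO, H-23 and H-1299 had 0 to 12 counts per DMSO library and were not tested.

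**Figure D3:**
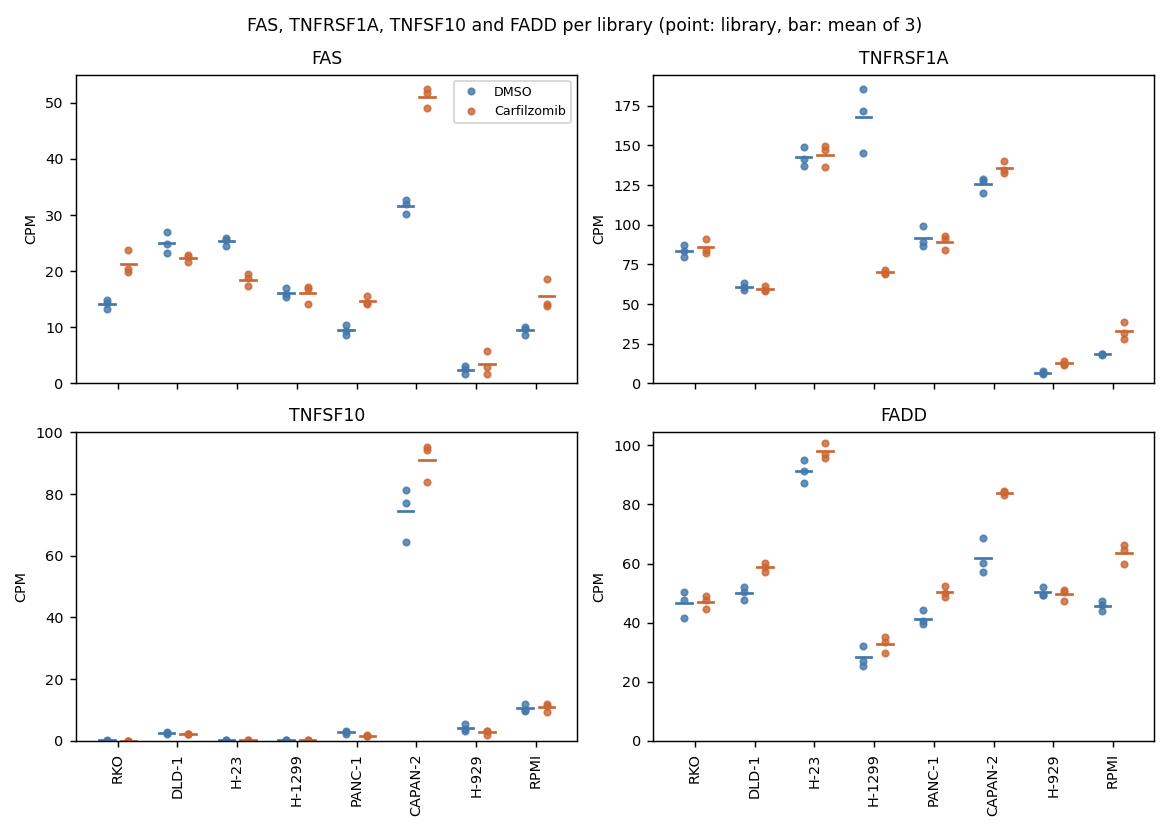
CPM of FAS, TNFRSF1A, TNFSF10 and FADD in each library, DMSO in blue and carfilzomib in orange, with bars at the means of 3. TNFRSF1A drops in H-1299 to between 69.1 and 71.4 CPM, and TNFSF10 is at most 5.26 CPM in every line but CAPAN-2 and RPMI.

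FADD, the adaptor that links receptor and caspase, rose in 4 lines by small amounts. RPMI went from 47.2, 46.1 and 44 to 64.6, 66.4 and 60 CPM (0.48 ± 0.061, adjusted p = 1.2e-05 by edgeR) and CAPAN-2 from 60.3, 68.5 and 57.1 to 83.2, 84.5 and 84.2 CPM (0.44 ± 0.067, adjusted p = 6.6e-05). PANC-1 (0.28) and DLD-1 (0.23, adjusted p = 0.0092) were also called, and DLD-1 lost its call without carfilzomib replicate 3 (adjusted p = 0.051). The groups were separate in these 4 lines. H-1299 gave 25.5, 32.2 and 27.1 against 29.7, 35.2 and 33.3 CPM, 0.22 with an adjusted p of 0.061, and it was called without DMSO replicate 2 (0.32) or carfilzomib replicate 1 (0.27), with DESeq2 size factors (adjusted p = 0.049), with no filter (0.035) and by DESeq2's own test (0.047). H-23, H-929 and RKO were not called, at 0.10, -0.02 and 0.02. In the fit of all libraries FADD in H-929 was -0.18 with an adjusted p of 0.044.

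CASP8, the initiator caspase of the pathway, rose in 5 lines and fell in none. In RPMI it stood at 102, 103 and 109 CPM with DMSO and at 172, 172 and 172 CPM with carfilzomib (0.72 ± 0.05, edgeR adjusted p = 3.0e-08). H-23, which had the lowest level without the drug, went from 18, 16.6 and 19.3 to 29.1, 30.9 and 27.7 CPM (0.70 ± 0.07, adjusted p = 4.0e-06). H-929 went from 104, 98.9 and 97.2 to 160, 206 and 121 CPM (0.70 ± 0.14, adjusted p = 7.8e-04). All treated libraries lay above all DMSO libraries in these lines, and those of H-929 were the most spread. CAPAN-2 rose from 79.4, 71.5 and 73.8 to 99.9, 103 and 93 CPM (0.40) and PANC-1 from 53.1, 50.4 and 52.5 to 62.3, 68 and 67.5 CPM (0.34). The fold changes of RKO (0.15), H-1299 (0.15) and DLD-1 (0.05) were above 0 but not called. A pattern of at least 5 lines called higher and none lower was shown by 6.69% of the 11622 genes tested in every line.

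CFLAR, the inhibitor that competes with caspase-8, split the lines. It fell in H-1299 from 89.2, 90.9 and 86.9 to 61.5, 62.3 and 67 CPM (-0.49 ± 0.049, adjusted p = 2.2e-06 by edgeR). It also fell in CAPAN-2 from 181, 178 and 185 to 134, 139 and 148 CPM (-0.37), in PANC-1 from 77.1, 73.9 and 80.2 to 57.9, 61.5 and 64.1 CPM (-0.33), and in H-23 from 94.7, 95.5 and 96.9 to 88.6, 86 and 89.1 CPM (-0.12, adjusted p = 0.021). Groups were separate in all 4, and the small H-23 change lost its call without DMSO replicate 3 (adjusted p = 0.069) and in the fit of all libraries (0.051). CFLAR rose in DLD-1 from 152, 158 and 156 to 200, 183 and 190 CPM (0.30, adjusted p = 0.0011). It rose in RPMI from 74.6, 72.4 and 71.8 to 93.5, 87.1 and 92.6 CPM (0.32) and in H-929 from 156, 161 and 139 to 174, 214 and 191 CPM (0.34), where the adjusted p was 0.051 without carfilzomib replicate 2. RKO did not pass the threshold, at 0.00 ± 0.059. Of the genes tested in all 8 lines, 47.8% were called in both directions and 19% were called lower in at least 4 lines. The antisense gene CFLAR-AS1 held 1.13% to 3.06% as many counts as CFLAR over a line's libraries.

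The balance of CFLAR to CASP8 counts within a library, which no scaling between libraries affects, was lower with carfilzomib in 7 of 8 lines. The mean log2 ratio fell from 2.42 to 1.59 in H-23, from 1.28 to 0.51 in CAPAN-2, from 0.57 to -0.11 in PANC-1 and from 1.90 to 1.26 in H-1299. RPMI, where both genes rose, went from -0.52 to -0.92, and was the one line with fewer CFLAR than CASP8 counts in all DMSO libraries. DMSO and treated libraries did not overlap in these 5 lines or in DLD-1, where the ratio rose from 1.51 to 1.76. They overlapped in H-929 (0.60 to 0.28) and RKO (0.14 to -0.03). Over the 8 lines the mean change was -0.44 (SD 0.363, exact two-sided sign-flip permutation p = 0.0234, adjusted p = 0.0469 over the 2 ratios, smallest possible p 0.0078). Leaving out any replicate number or any line gave mean changes from -0.54 to -0.38 with unadjusted exact p-values of 0.0156 to 0.0469. Within a line, 3 against 3 libraries cannot give an exact p under 0.1. Counts per gene depend on transcript length, so the ratio's level says nothing of protein amounts.

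**Figure D4:**
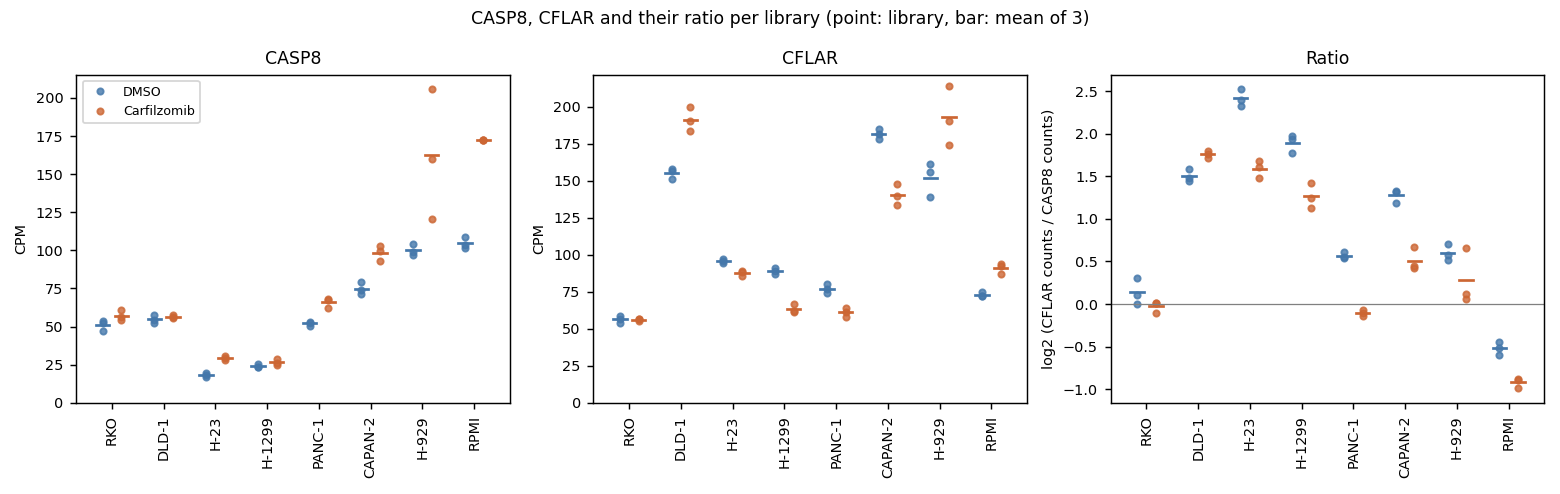
CPM of CASP8 and CFLAR in each library, and the log2 ratio of CFLAR to CASP8 counts, DMSO in blue and carfilzomib in orange, with bars at the means of 3. The treated mean of the ratio is below the DMSO mean in 7 lines and above it in DLD-1.

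The test of whether the effect differs between lines used one fit of all 48 libraries, in which 67.7% of 22309 genes passed. Of the members 9 of 10 passed, all but TNFRSF10C, and the largest F value was that of TNFRSF10D (F = 76.9) before TNFRSF1A (F = 60.5). CASP8 (F = 7.04) and FADD (F = 8.24) had the smallest among the members at more than trace level in every line. TNFSF10 passed (F = 2.95, edgeR adjusted p = 0.020) but not without CAPAN-2, without PANC-1, or without replicate number 1 or 2 (adjusted p of 0.600, 0.104, 0.200 and 0.231), nor with library totals (0.054).

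Averaged over the 8 lines in that fit, 6 members were higher and 1 lower, where 43.7% of all genes were called, 19.8% higher and 23.9% lower. The averages were 0.36 for CASP8, 0.36 for TNFRSF10D, 0.29 for TNFRSF10A, 0.28 for FAS, 0.25 for TNFRSF10B and 0.18 for FADD. CFLAR was lower by little (-0.09), and it was not called without H-1299 (-0.02), PANC-1 (-0.05) or CAPAN-2 (-0.05). TNFRSF1A averaged 0.03 and was not called, but it was 0.22 and called without H-1299, and -0.07 and -0.08 and called without H-929 and without RPMI. These tests take the spread between replicates as the error. With the 8 lines as the units (limma on the lines' log2 fold changes), 57 genes were called higher and 45 lower, and 0 members were called. By that test 3 members had an unadjusted p under 0.05: CASP8 (0.0030, adjusted 0.084), TNFRSF10A (0.020) and FADD (0.028).

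The myeloma lines were set against the 6 carcinoma lines because carfilzomib is a myeloma drug. The drug effect on TNFRSF1A was larger by 0.95 on the log2 scale in the myeloma lines, that on TNFRSF10B by 0.63, on CFLAR by 0.39, on TNFRSF10D by 0.37 and on CASP8 by 0.30, and that on TNFRSF10A was lower (-0.30). So 5 members were higher and 1 lower, where 44.3% of all genes were called (19.1% higher, 25.2% lower). The class holds 2 lines that did not respond alike. Without H-929, the difference was 0.34 for TNFRSF10A and -0.36 for TNFRSF10D, both called in the direction opposite to that with it, and FADD was called at 0.22. Without RPMI, CASP8 lost its call (0.25, adjusted p = 0.0501 by edgeR) and FADD was called at -0.39. TNFRSF10D was not called without CAPAN-2 (0.22), and FAS, not called with all lines (0.31), passed without RKO, PANC-1, CAPAN-2 or H-929 (0.38 to 0.47), without replicate number 1 (0.49) or 3 (0.50), with DESeq2 size factors (0.38) and with library totals (0.44). With lines as the units no member passed, and the values nearest to passing were those of TNFRSF10B (adjusted p = 0.076 by limma) and TNFRSF1A (0.080). The unadjusted limma p was under 0.05 for 3 members, TNFRSF10B (0.011), TNFRSF1A (0.012) and CFLAR (0.048).

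Without the drug, the lines already differed in every one of the 10 genes, as did 98.8% of 21116 genes tested on the 24 DMSO libraries. TNFSF10 spanned the widest range among genes that were measured well in some line: 78.9 ± 9.3 CPM (SD, n = 3) in CAPAN-2, 11.8 in RPMI, 4.55 in H-929, 2.68 in PANC-1 and 2.36 in DLD-1, with 0.122 or less in H-1299, RKO and H-23. PANC-1 and DLD-1 overlapped, as did the last 3. These levels were scaled over the DMSO libraries of all lines and so differ slightly from the CPM given for each line above. TNFRSF1A was highest in H-1299 (178 ± 23 CPM), followed by CAPAN-2 (133) and H-23 (128), which overlapped, then PANC-1, RKO and DLD-1, and it was lowest in RPMI (20.5) and H-929 (7.53). TNFRSF10D ran from H-23 (89.9) and RKO (80.1), which overlapped, down to RPMI (12.7) and H-929 (4.72).

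TNFRSF10B was highest in DLD-1 (179 CPM) and RKO (168 CPM) and lowest in RPMI (33.5 CPM), and in this order only CAPAN-2 (94.3 CPM) and PANC-1 (92.3 CPM) overlapped as neighbours. TNFRSF10A was highest in RPMI (81.0 CPM) and lowest in PANC-1 (18.5 CPM), with DLD-1, H-929 and RKO overlapping in turn between 59.7 and 55.8 CPM. FAS ran from 33.5 CPM in CAPAN-2 to 2.68 CPM in H-929. CASP8 was highest in RPMI (117 CPM) and H-929 (111 CPM), which overlapped, and lowest in H-23 (16.1 CPM). CFLAR ran from 192 CPM in CAPAN-2 to 49.9 CPM in RKO with no neighbours overlapping, and FADD only from 81.7 CPM in H-23 to 30.1 CPM in H-1299. TNFRSF10C was 4.70 CPM in CAPAN-2 and at most 0.802 CPM elsewhere.

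**Figure D5:**
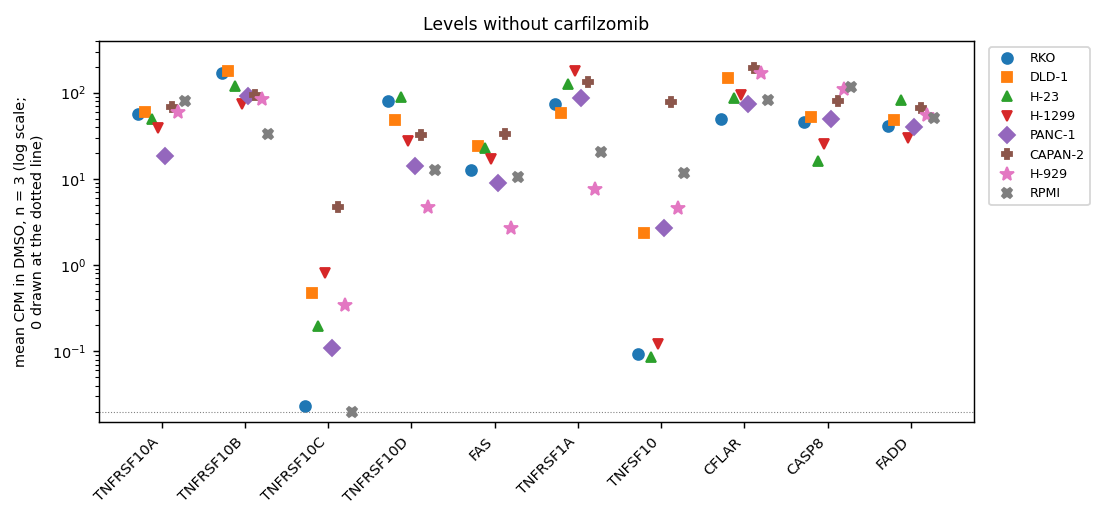
Mean level of each gene in the DMSO libraries of each line (CPM, log axis, n = 3, 0 drawn at the dotted line). Levels should be compared between lines within a gene, and the widest spread is seen for TNFSF10 and TNFRSF10C.

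Compared as classes in DMSO, the myeloma lines had less RNA than the carcinoma lines for TNFRSF1A (-3.04 on the log2 scale), TNFRSF10D (-2.39), FAS (-1.77), TNFRSF10B (-1.11) and TNFRSF10C (-3.06), and more for TNFSF10 (3.02), CASP8 (1.52), TNFRSF10A (0.62), CFLAR (0.27) and FADD (0.14). All 10 passed, against 73.6% of all genes (37.9% higher, 35.8% lower). This test took the spread between replicates as the error, and no test with lines as the units was run for it. With 2 myeloma lines, it describes these lines rather than the classes. The class means of TNFSF10 hide CAPAN-2, whose level was above both myeloma lines. They also include RKO, H-23 and H-1299, each at 0.122 CPM or less. PANC-1 (2.68 CPM) and DLD-1 (2.36 CPM) lay nearer to H-929 (4.55 CPM). The value of TNFRSF10C was 0.22 and not called without RPMI, where it had 0 counts, and it lost its call without CAPAN-2 (-2.26) and without replicate number 1 (-2.90). CFLAR was -0.26 and called without H-929 and not called without RKO (0.04) or with library totals (0.05), and FADD was -0.02 without H-1299 and not called without RKO (0.07), PANC-1 (0.06) or H-929 (0.08), or with library totals (-0.07).

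Other genes of the pathway were counted in 4 lists. Their counts are to be read against the shares of all genes called higher and lower, which were 31.3% and 32.2% for RPMI, 29.8% and 31.3% for H-1299, 26.4% and 26.2% for H-929, 25.7% and 26.7% for CAPAN-2, 20.5% and 18.2% for PANC-1, 17.7% and 16.2% for H-23, 10.9% and 12.1% for DLD-1, and 3.62% and 5.28% for RKO. Of 15 further receptors and ligands, between 4 and 10 were tested per line, and no direction was shared by the lines. H-1299 had 1 higher and 4 lower of 9, CAPAN-2 0 and 6 of 10, and RPMI 0 and 3 of 4. PANC-1 had 3 higher and 1 lower of 7 (median log2 fold change 0.33), H-23 2 and 3 of 10, H-929 2 and 2 of 7, and DLD-1 1 and 1 of 10. In RKO none of the 7 tested was called by edgeR and 1 had an unadjusted p under 0.05. TNFRSF21 (DR6), another receptor with a death domain, averaged -0.32 over the lines, lower in 4 and higher in 0, with its largest fall in H-1299 (-0.93). TNFRSF12A, the receptor of the ligand TWEAK, rose in 4 lines and fell in 2, with values from -0.41 (RPMI) to 1.09 (H-929). Of these 15 genes, 3 are on rows whose identifier has more than 1 row in the matrix, and their values are uncertain.

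Among 22 genes of the receptor complexes and of other proteins with a death effector domain, RPMI had 10 higher and 4 lower of 19 tested, H-23 had 9 and 1 of 21, PANC-1 8 and 1 of 20, CAPAN-2 8 and 3 of 21, and H-1299 8 and 7 of 20. H-929 had 5 higher and 6 lower of 20, RKO 3 and 0 of 20, and DLD-1 2 and 1 of 21. In all, 15 of 20 were called in H-1299 beside 61.2% of all genes, 14 of 19 in RPMI beside 63.4%, 11 of 20 in H-929 beside 52.6%, 11 of 21 in CAPAN-2 beside 52.5%, and 3 of 21 in DLD-1 beside 23%. DEDD2, a protein with a death effector domain, had the largest average (0.69) and was higher in 6 lines, by 1.71 in H-1299, 1.57 in RPMI and 1.55 in H-929. PEA15, whose death effector domain binds FADD and caspase-8, was higher in 5 lines and most in RPMI (2.06). BIRC3, a ubiquitin ligase of the TNF receptor complex, was higher in 4 lines (2.06 in H-929, 1.27 in RKO) and lower in RPMI (-1.25) and H-1299 (-0.83). MLKL, which carries out necroptosis, was higher in 5 lines, most in PANC-1 (1.02), and lower in H-1299 (-0.41). RIPK3, its activating kinase, was tested in no line, and 3 of the 22 share an identifier with another row.

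The 13 genes downstream of caspase-8, which are BID, caspases and their mitochondrial activators and inhibitors, were all tested in every line. H-1299 had 9 higher and 1 lower, beside 29.8% and 31.3% of all genes, PANC-1 had 8 and 1, beside 20.5% and 18.2%, and CAPAN-2 had 7 and 1, beside 25.7% and 26.7%. The other carcinoma lines had 3 higher and 1 lower in H-23, 1 and 2 in DLD-1, and 0 and 1 in RKO. In all, 4 of 13 were called in H-23 beside 33.9% of all genes, 3 in DLD-1 beside 23% and 1 in RKO beside 8.9%. H-929 had 1 higher and 7 lower, beside 26.4% and 26.2% of all genes, and RPMI 4 higher and 7 lower, beside 31.3% and 32.2%, with medians of -0.38 and -0.20. The drug effect was lower in the myeloma lines for 10 of the 13 and higher for 0, where 25.2% of all genes were lower. That test took the spread between replicates as the error for a class of 2 lines, so it describes these lines. With lines as the units, 512 of all genes were lower, against 5616 in that test. CYCS, cytochrome c, fell in RPMI (-0.92), H-929 (-0.71) and H-1299 (-0.52), and XIAP, a direct caspase inhibitor, fell by 1.05 in H-929. CASP9, the caspase activated by cytochrome c, rose in 4 carcinoma lines, most in CAPAN-2 (0.73), and DFFA, the inhibitor of the apoptotic nuclease, rose in 6 lines by at most 0.41.

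Of 14 transcription factors known to act on death receptor genes, 13 or 14 were tested per line, and 7 were higher and 5 lower in RPMI. H-929 had 3 higher and 3 lower, CAPAN-2 5 and 5, H-1299 and H-23 6 and 4 each, PANC-1 4 and 3, DLD-1 1 and 7, and RKO 1 and 3. In H-929 that is 6 of 13 called, beside 52.6% of all genes, in RPMI 12 of 13 beside 63.4%, in H-1299 10 of 13 beside 61.2%, in H-23 10 of 13 beside 33.9%, and in DLD-1 8 of 13 beside 23%. DDIT3 (CHOP) rose by 3.28 in RPMI and 3.24 in H-929, by 0.83 in CAPAN-2 and by less in PANC-1 (0.29), H-23 (0.50) and H-1299 (0.32), and fell in DLD-1 (-0.69). JUN rose in 6 lines, most in H-929 (3.15) and RPMI (2.51), and ATF3 rose in 5, most in RPMI (3.05).

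Over the 8 lines, the log2 fold changes of CASP8 and DDIT3 had a Pearson r of 0.81, those of TNFRSF10B and DDIT3 0.78 and those of TNFRSF1A and CFLAR 0.75. These are picked as the highest r of all pairs that hold a member. The other members tested in every line had r with DDIT3 of 0.69 (TNFRSF1A), 0.47 (CFLAR), 0.46 (FAS), 0.26 (TNFRSF10D), 0.14 (FADD) and -0.20 (TNFRSF10A). TNFRSF10A and TNFRSF10B, the 2 death-inducing TRAIL receptors, gave 0.30, and CFLAR and CASP8 gave 0.31. These r are descriptions over 8 points that share scaling and, in each line, the DMSO libraries, and the 2 myeloma lines lie far from the others in DDIT3. The genes whose changes were most like those of TNFRSF10B, of 10957 compared, were ADAM20 (r = 0.99), MBD6 (0.99), CD58 (0.99), UGGT2 (0.98) and IFIT2 (0.97), and in each of these RPMI had the highest value (6.23 for IFIT2). Those most like CFLAR were APC2 (0.98), ZSCAN9 (0.96), TLCD5 (0.96), CCDC57 (0.96) and ODF3B (0.95), each with its lowest value in H-1299.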

How the data were processed

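Bulk RNA of 8 cell lines was sequenced after 24 h of carfilzomib or DMSO, as stranded total RNA libraries per the labels, while the design text calls it mRNA sequencing. The authors deposited raw read counts per gene for 33892 rows and 48 libraries. The submitters' processing notes name bcl2fastq 2.19, FastQC, Trimmomatic, HISAT2, DESeq2 and the genome build hg38. The counting program, the annotation and the strand setting are not given in the sources used here. Each member has 1 row, so rows that share an identifier (4803 in the matrix) touch no member, and summing such rows did not apply.

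Each line's 6 libraries were tested in R 4.3.3 with edgeR 4.0.16 (TMM scaling, filterByExpr, quasi-likelihood F test), with Benjamini-Hochberg adjustment over all genes tested and a threshold of 0.05. CPM values of the members with and without the drug use these scaling factors. Marker sums use those of the fit of all 48 libraries, and levels compared between lines in DMSO those of the 24 DMSO libraries. A joint fit of 16 groups gave averages and tests between lines, limma 3.58.1 a test over lines, and DESeq2 1.42.0 an alternative. Ratios added 0.5 to counts and were tested by exact sign flips over the lines. The edgeR tests within a line were checked on simulated counts before use, and the other tests were not. Counts of 3 or fewer were taken as the floor. Counts carry no known molecular identifiers, so the depth sets counting error only.

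Named genes are the 10 members, the 4 genes of each pathway list with the largest average change among those called and tested in all 8 lines, and the 5 genes most like TNFRSF10B and CFLAR (mean of at least 50 counts). The members and lists were chosen with earlier results of these data known. RIPK3 and single alternative fits were named after their values were seen.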

Additional observations from a re-analysis of the deposited data

Results flagged for a closer look

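The drug effect differed between the 8 lines by the F test of the joint edgeR fit for 9 members. The F values were 35 for TNFRSF10A, 38 for TNFRSF10B, 76.9 for TNFRSF10D, 12.6 for FAS, 60.5 for TNFRSF1A, 2.95 for TNFSF10, 34 for CFLAR, 7.04 for CASP8 and 8.24 for FADD. The share of all genes that passed this test was 67.7%.

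The drug effect in the myeloma lines minus that in the carcinoma lines passed the same fit's threshold for 6 members. On the log2 scale the differences were -0.30 for TNFRSF10A, 0.63 for TNFRSF10B, 0.37 for TNFRSF10D, 0.95 for TNFRSF1A, 0.39 for CFLAR and 0.30 for CASP8. The myeloma class is 2 lines, and without H-929 the differences of TNFRSF10A (0.34) and TNFRSF10D (-0.36) had the opposite sign. With lines as the units, 0 of these 6 passed by limma, and 3 had an unadjusted p under 0.05: TNFRSF10B (0.011), TNFRSF1A (0.012) and CFLAR (0.048).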

How the results depend on the processing

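Within lines, leaving out a library kept the direction and the side of the threshold of single members in 421 fits, ended the call in 7 and added one in 4, and the other settings did so in 420, 4 and 7. No such value changed sign with a call. Scaling by library totals gave RKO 807 genes higher against 525 and 2 members higher against 1 (TNFRSF10B joined FAS, 0.16, edgeR adjusted p = 0.048), and without the filter 794 genes were higher. The share of called genes that were higher moved from 40.6% to 60.9% in RKO and from 47.5% to 60.3% in DLD-1 with library totals, which shifted the median of all genes by -0.11 in H-1299. One fit of all libraries called 1863 genes higher in H-23 (3192 in its own fit) with 1 member lower against 2, 2060 higher and 1727 lower in PANC-1 (3426 and 3046), and 6266 higher and 6400 lower in H-929 (4141 and 4104) with 3 members lower against 1. With lines as the units, the average had 57 genes higher and 45 lower (4417 and 5343) with 0 members in either direction against 6 and 1, and the myeloma difference had 641 higher and 512 lower (4268 and 5616) with 0 and 0 members against 5 and 1. In DMSO, library totals left 3 members higher in the myeloma lines against 5, and the FADD difference was -0.073. The cause of these shifts was not tested. Leaving out 1 library gave 197 to 482 genes higher, 403 to 774 lower and 0 to 1 member higher in RKO, 1100 to 1870 higher and 1272 to 2151 lower in DLD-1, and 1 to 2 members lower in H-23. Leaving out a line or replicate number gave 0 to 2 members lower on average, 1 to 2 members lower for the myeloma difference and 3 to 5 members higher for the DMSO difference. Signs turned for TNFRSF1A on average (-0.079 to 0.22, below 0 without either myeloma line), for the myeloma difference without H-929 (TNFRSF10A 0.34, range -0.92 to 0.34; TNFRSF10D -0.36, range -0.36 to 1.13; FADD 0.22, range -0.39 to 0.22), and in DMSO for TNFRSF10C (-6.44 to 0.22, the last without RPMI), CFLAR (-0.26 to 0.78, the first without H-929) and FADD (-0.022 to 0.26, the first without H-1299). Same-numbered DMSO and treated libraries correlated by -0.10 to 0.15 in their deviations (2 of 24 pairs over 0.1, 11 of 24 best with their own number). The main tests did not use the numbers as pairs. Deviations from means of 3 libraries cannot exclude a pairing. With the replicate number as a block, FADD in H-1299 was called (0.21, edgeR adjusted p = 0.012) and TNFSF10 no longer differed between lines (adjusted p = 0.055). Depth limits TNFRSF10C and TNFSF10 in the lines where they had few counts.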
